A study of Mus musculus with 24 samples.

Results

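The cytosolic ribosomal protein genes of mouse blood monocytes were followed across 6 groups of sorted cells. They were chosen by name alone: every gene called Rpl or Rps with a number, the stalk genes Rplp0, Rplp1 and Rplp2, and Rpsa. The kinases named Rps6k and the 247 numbered names carrying -ps were left out. The rule found 91 of the 53715 genes in the table. Of these, 85 reached a normalized count of 50 in at least 1 of the 24 libraries and were tested among 11230 such genes. Normalized counts are read counts that the authors divided by a size factor for each library and rounded, so each is relative to the rest of that library.

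The study asked how Notch2 and inflammation through TLR7 together shape the fate of circulating monocytes. Total RNA was sequenced from sorted blood monocytes of C57BL/6 mice aged 8–10 weeks, with 4 libraries in each group. The wt mice were littermate controls. The N2ΔMy mice carried Lyz2-Cre and loxP-flanked Notch2, so that Notch2 was deleted in myeloid cells that express lysozyme M and not only in monocytes. All mice carried a Cx3cr1-GFP reporter, since the sort gate required GFP, CD11b and CD115. Sham mice received vaseline and IMQ mice Aldara cream with 5% imiquimod, an agonist of TLR7, at 50 mg a day on the skin for 4–5 days, and cells were taken on day 5. The labels give the vaseline, while the methods for the sequenced cells call the controls untreated. Sham mice gave Ly6Chi monocytes, the classical subset, in wt and N2ΔMy. IMQ mice gave Ly6Chi and Ly6Clo monocytes in wt and N2ΔMy. Ly6Clo monocytes are known as the patrolling subset, and in N2ΔMy the name stands here for the sort gate alone. No Ly6Clo cells of Sham mice were sequenced, so the subset comparison exists under IMQ alone. The labels number the replicates but do not say which libraries came from the same animal or pool, and p-values measure the spread between these libraries.

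A cytosolic ribosome has a large and a small subunit, built from ribosomal RNA and a fixed set of proteins. Their genes are expressed in nearly every cell, and their mRNAs typically begin with a run of pyrimidines, the 5′ terminal oligopyrimidine (TOP) motif, through which mTOR and the binding protein LARP1 control their translation and stability. Some members have close paralogs of restricted use, such as Rpl3l in striated muscle and Rpl10l and Rpl39l in the testis. Many members also have near-identical retrocopies elsewhere in the genome, between which short reads are hard to assign.

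Start sites of 67 members were found in RefSeq (GRCm38.p6). A run of 8 or more C or T within 30 bases of the annotated start was present in 35 of 67 members (52.2%), against 25.8% of all 27025 genes with a start. Shown are 6 starts, 30 bases each, 5′ to 3′ on the gene's strand, with the longest run of C or T in capitals. The first 4 belong to genes whose mRNA was lower in Ly6Clo cells in the results that follow, of which Rpsa has a run of 7 and so counts as having none. The last 2, Rps27 and Rpl22l1, were not called there, and both have a run.
Rps12 (chr10:23787182-23787211, minus strand): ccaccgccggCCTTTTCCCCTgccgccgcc
Rplp2 (chr7:141447636-141447665, plus strand): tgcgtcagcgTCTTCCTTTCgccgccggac
Rps6 (chr4:86857349-86857378, minus strand): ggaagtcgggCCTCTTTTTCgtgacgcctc
Rpsa (chr9:120127766-120127795, plus strand): acgtcatttccggccgcccgTCCTTTCgcg
Rps27 (chr3:90213632-90213661, minus strand): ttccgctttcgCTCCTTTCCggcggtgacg
Rpl22l1 (chr3:28805499-28805528, plus strand): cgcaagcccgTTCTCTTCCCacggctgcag
In the 300 bases around each start, read on both strands, the ETS core CCGGAAG was present in 38.8% of members and 9.93% of all genes, and the GC box GGGCGG in 61.2% and 38.2%. The motifs CCAAT (31.3% and 41.1%), TATAAA (10.4% and 15.7%), CACGTG (8.96% and 8.09%) and AAGATGGC (8.96% and 3.19%) were searched in the same way. These matches describe letters in a window and not the use of a site. The 32 tested subunit genes with a run and the 24 without one had nearly the same median change in wt Ly6Clo cells, −0.54 and −0.52 on the log2 scale.

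Before the comparisons, the libraries themselves have to be described. The deposited values summed to between 13273508 and 14651770 per library, and the rounding of low values implied between 9521553 and 19763898 counted reads. Notch2, as its whole-gene value, lay between 7240 and 11518 in the 12 N2ΔMy libraries and between 12656 and 20005 in the 12 wt libraries. Ly6c2, the gene of the sorting marker, was at 2370–9161 in Ly6Chi libraries and at 12–382 in Ly6Clo libraries, while the monocyte receptor gene Csf1r was at 14998 or more in all. B cell markers summed to at most 176 in any library, NK cell markers to at most 69 and T cell markers to at most 6, and 6 erythroid markers to between 0 and 1547. The erythroid sum was 753 to 1547 in replicate 4 of each IMQ group and at most 92 in the other IMQ libraries. Its part in the results was not tested.

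The library numbers fall into a first series, which holds replicates 1 and 2 of every group, and a second, which holds replicates 3 and 4. The labels do not say what separates them. The 85 tested members were a median of 0.47 higher on the log2 scale in the second series, against −0.02 over all genes tested, and 17 of the 85 were higher by 1 or more, against 2.78% of all genes. Rpl39, a small protein at the exit tunnel, had 128 to 267 normalized counts in the 12 libraries of the first series and 769 to 1633 in the second. Rps10 moved alike, by 2.20. The stalk gene Rplp1 (0.03) and Rps20 (−0.08) did not differ to that degree, and Rps26 was lower in the second series (−0.57). Members with a main transcript under 600 bases were a median of 0.81 higher (20 genes) and those of 1000 bases or more 0.21 higher (31 genes). Among the other genes tested, 105 with such short transcripts were also higher, by a median of 0.62. The nuclear RNA Rn7sk was at 30470–40298 in the 12 libraries of the first series and at 2019–6890 in the 12 of the second, and its part was not tested. Each group has 2 libraries in each series, so the groups were balanced, but the gap widens the spread within groups. Every comparison was therefore fitted again with a block for the replicate number, and once more inside each series.

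**Figure D1:**
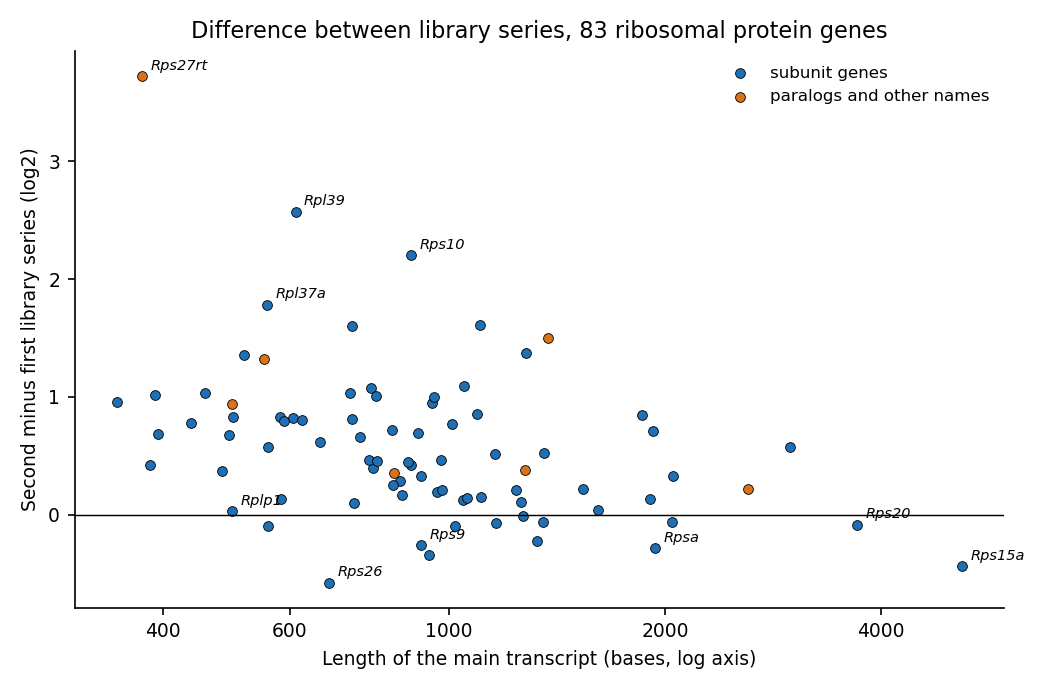
Difference of the mean log2(value + 1) between the second and the first library series (vertical axis, log2) against the length of the main transcript (horizontal axis, bases, log scale) for 83 tested members with a transcript length; each point is a gene. Rps27rt, Rpl39 and Rps10 lie highest, and Rplp1 and Rps20 lie near 0.

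Per kilobase of main transcript, the highest mean normalized counts over all libraries were those of Rplp1 (13266), Rpl26 (12198.5), Rps27 (10321), Rplp2 (10258) and Rps9 (8979). With the deposited exon length as divisor, which unites all exons of a gene, Rplp1 was still the highest and the other 4 left the leading 5. The lowest tested members per kilobase of main transcript were Rpl36al (21.9), Rpl3l (50.2), Rps27rt (52.1), Rps19bp1 (229), which encodes a binding protein and no subunit, and Rpl13a (238). In all, 6 members stayed below a normalized count of 50 in every library. Of these, Rpl10l was at 0 throughout and Rpl39l reached at most 17. Rpl24, a core protein of the large subunit, reached at most 13 where Rpl7 had at least 3629. Its exons overlap another annotated gene on the same strand, and those of Rpl13a overlap 3. How reads shared with such genes or with near-identical copies were counted is not given in the sources used here, so the values of both are uncertain, and the part of shared reads in them was not tested.

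Together the 91 members held between 1.23% and 2.84% of the summed values of a library. In wt Ly6Chi cells their share was 1.89% ± 0.254 (SD, n = 4) under Sham and 2.16% ± 0.435 (SD, n = 4) under IMQ. N2ΔMy Ly6Chi cells held 2.05% ± 0.377 (SD, n = 4) under Sham and 2.42% ± 0.424 (SD, n = 4) under IMQ. The lowest shares were in Ly6Clo cells, at 1.43% ± 0.208 (SD, n = 4) in wt and 1.57% ± 0.274 (SD, n = 4) in N2ΔMy. In both genotypes all 4 Ly6Clo libraries lay below all 4 Ly6Chi libraries of the same treatment, at 0.661 of the Ly6Chi share in wt and 0.647 in N2ΔMy. Within the first series these ratios were 0.683 and 0.658, and within the second 0.644 and 0.639. The Sham and IMQ groups of Ly6Chi cells overlapped in both genotypes, although the IMQ library was higher at each of the 4 replicate numbers. In these bulk samples, a lower share of a transcript cannot be told apart from a change in the RNA content of the rest of the cell.

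**Figure D2:**
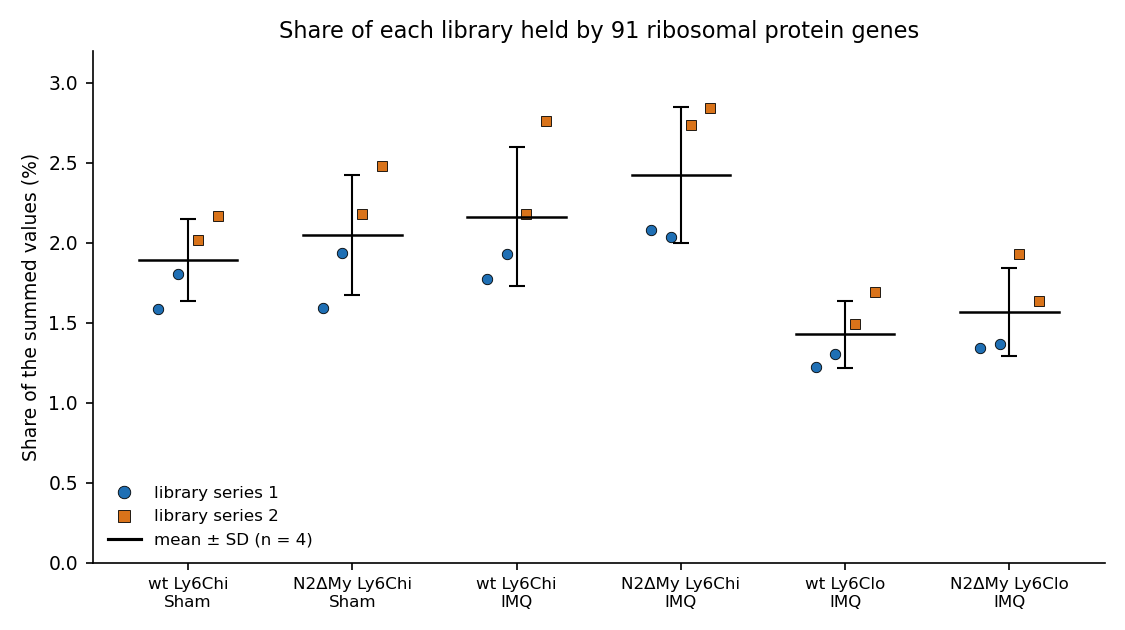
Share of each library's summed normalized counts held by the 91 ribosomal protein genes (vertical axis, %), by group, with a point per library marked by its series and the mean ± SD (n = 4). The Ly6Clo libraries lie between 1.23% and 1.93%, and the Ly6Chi libraries of IMQ mice between 1.78% and 2.84%.

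The first comparison asked what separated Ly6Clo from Ly6Chi monocytes under IMQ. The ribosomal protein genes were lower in Ly6Clo cells almost throughout. In wt, 81 of the 85 tested members had a negative change, with a median of −0.47 on the log2 scale against −0.01 over all genes tested. In N2ΔMy, 82 of 85 had a negative change, with a median of −0.58 against −0.01. The quartiles of the members were −0.70 and −0.34 in wt and −0.72 and −0.45 in N2ΔMy.

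Changes were tested with limma on log2(normalized count + 1), and a gene was called when its p, adjusted over all 11230 genes by Benjamini and Hochberg, did not exceed 0.05. In wt, 34 members were called lower, where 17.3% of all genes tested were, and 1 was called higher, where 18.3% of all genes were. With a log2 fold change of at least 0.6 also required, 20 members were lower, where 12.7% of all genes were. In N2ΔMy, 38 members were called lower (11.8% of all genes tested) and none higher (13% of all genes). With the fold rule, 25 members were lower (8.38% of all genes). The libraries of the subsets did not overlap, with Ly6Clo below, for 25 members in wt (17.1% of all genes tested) and for 32 members in N2ΔMy (13% of all genes). Of the 34 and 38 members called lower, 28 were called in both genotypes, which share no library, where 9.72% of all genes tested were called lower in both. That is 28 of 34 in wt and 28 of 38 in N2ΔMy.

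With the replicate number as a block, which removes the gap between the series, 72 members were called lower in wt (25.2% of all genes tested) and 72 in N2ΔMy (17.4%), of which 69 were shared (15% of all genes were lower in both). Rpl3l was the only member called higher in that fit in either genotype, in wt (25.2% of all genes were higher) and in N2ΔMy (17.9%). Within the first series alone 41 members were lower in wt (14.4% of all genes tested) and 49 in N2ΔMy (9.77%), and within the second 40 (10%) and 73 (15.2%). Without any single library the count of members lower lay between 24 and 41 in wt and between 28 and 45 in N2ΔMy. The median change in wt lay between −0.63 and −0.31, the last without Ly6Chi IMQ replicate 4.

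**Figure D3:**
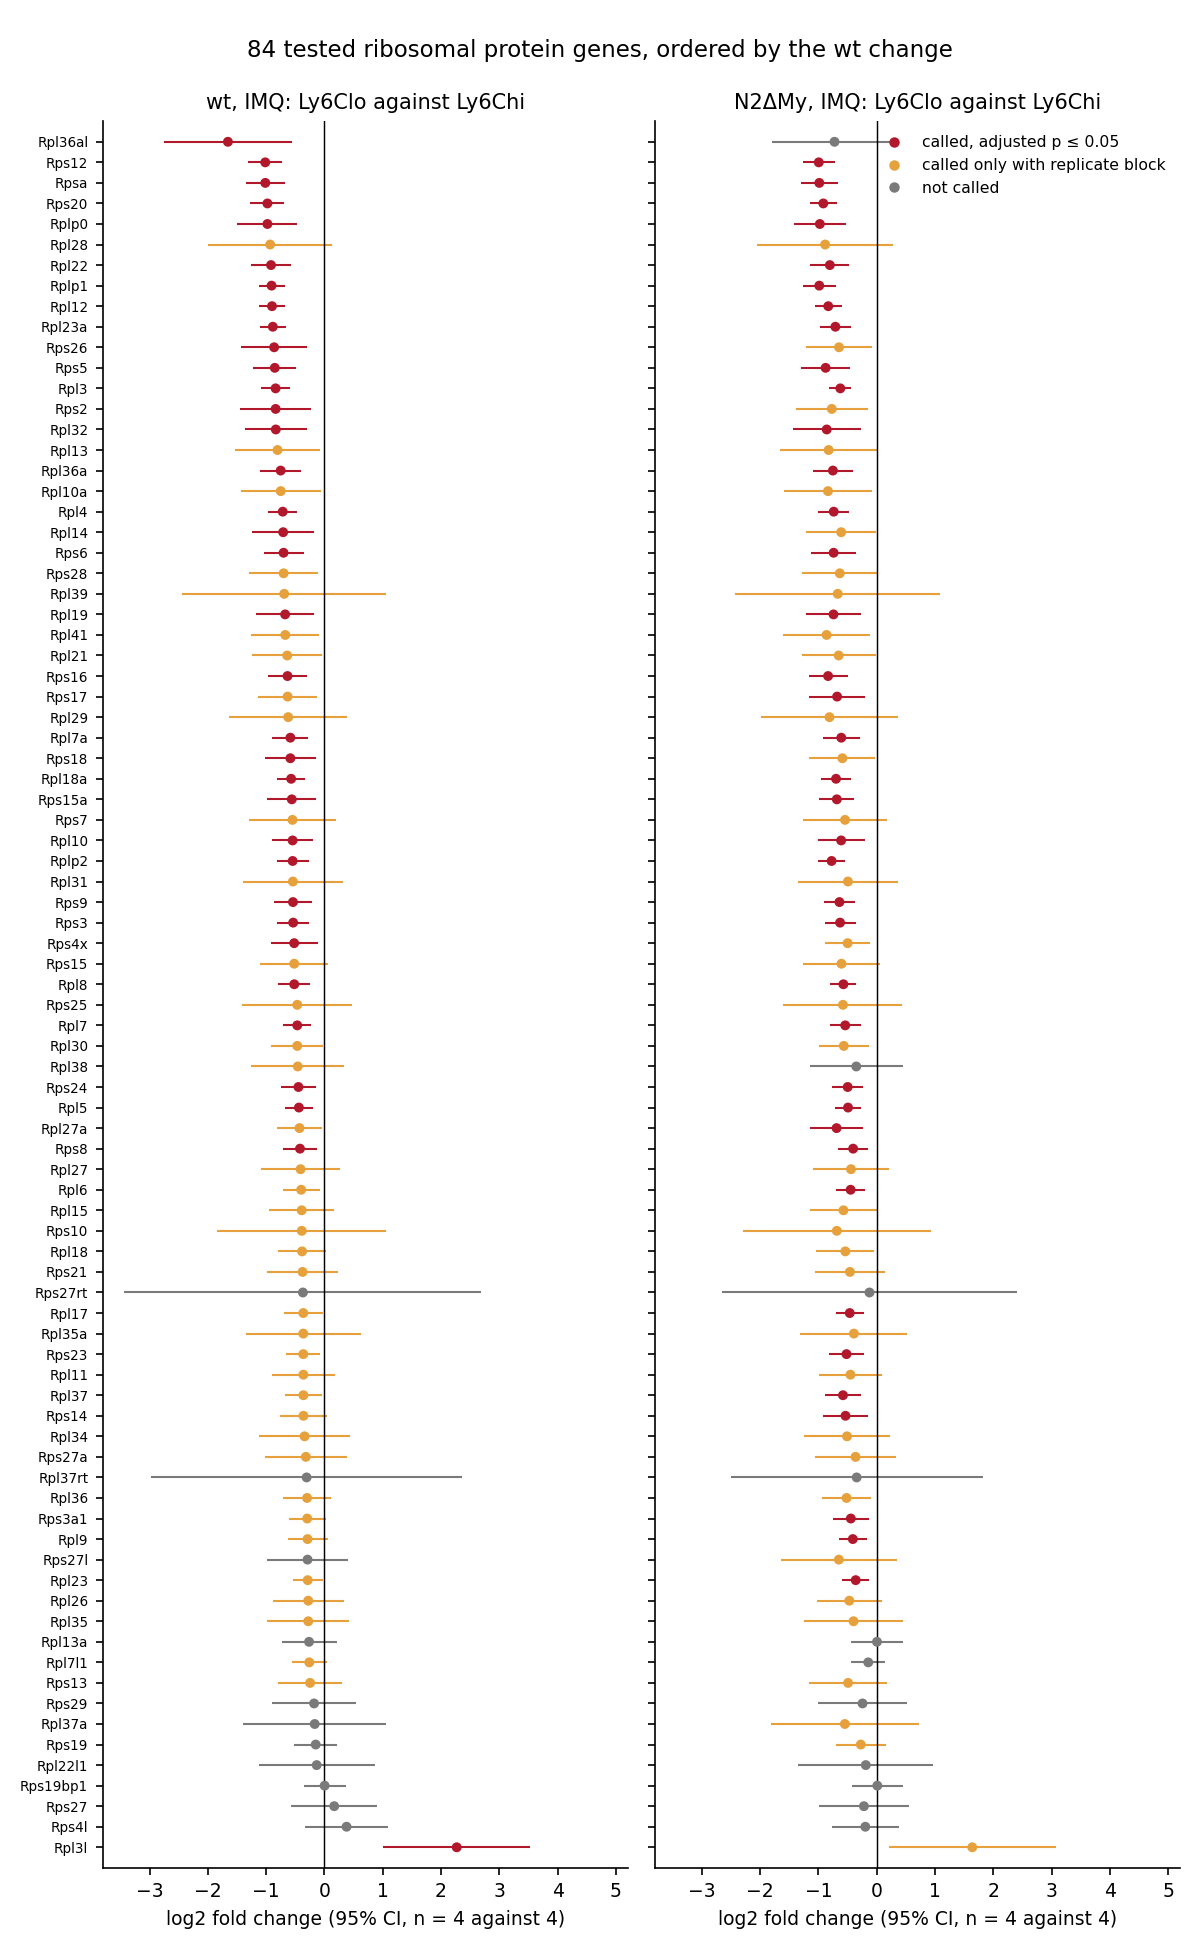
log2 fold change of Ly6Clo against Ly6Chi under IMQ (horizontal axis) with its 95% confidence interval from limma (n = 4 against 4), for 84 of the 85 tested members (vertical axis, ordered by the wt change) in wt (left) and N2ΔMy (right). Nearly all points lie left of 0 in both panels, and Rpl3l lies far right of 0; red marks called genes, orange those called with the replicate block alone and gray the others.

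The acidic stalk of the large subunit, which recruits elongation factors, was lower in all 3 of its members in both genotypes. Rplp1 (chr9:61913284-61914542, minus strand) had normalized counts of 8586, 8404, 7630 and 9756 in wt Ly6Chi IMQ libraries and of 4742, 4432, 4127 and 5011 in wt Ly6Clo libraries. In N2ΔMy it had 9500, 9551, 9946 and 10206 in Ly6Chi IMQ libraries and 5602, 4139, 5993 and 4332 in Ly6Clo libraries. All Ly6Clo libraries were thus below all Ly6Chi libraries of IMQ mice. The log2 fold change of Rplp1 was −0.91 ± 0.10 (SE) in wt and −0.98 ± 0.13 (SE) in N2ΔMy, with limma adjusted p of 5.45e-05 and 0.00023. The exact permutation p (two-sided) was 0.0286 in both, the smallest that 4 against 4 libraries allow.

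Rplp0, which anchors the stalk to the ribosome, had 8372, 9800, 12434 and 18168 normalized counts in wt Ly6Chi IMQ libraries and 4981, 5077, 5865 and 8301 in wt Ly6Clo libraries. The groups did not overlap, though replicate 4 was the highest in each. The changes of Rplp0 were −0.98 in wt and −0.97 in N2ΔMy (limma adjusted p of 0.0074 and 0.0047). Rplp2, the partner of Rplp1, fell by 0.55 and 0.77 on the log2 scale (limma adjusted p of 0.0055 and 0.00038). Rpl12, which sits at the base of the stalk, changed by −0.90 and −0.83, also without overlap of the groups.

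Of the 42 tested large subunit genes, 15 were called lower in wt (17.3% of all genes tested) and 20 in N2ΔMy (11.8%), with medians of −0.49 and −0.57. Besides Rpl12, falls were seen for Rpl22 (−0.92 in wt and −0.80 in N2ΔMy), Rpl23a (−0.89 and −0.71) and Rpl3 (−0.84 and −0.62), with Rpl3 a core protein near the peptidyl transferase center. Rpl7 had a smaller change, with 5189, 6008, 4975 and 6797 normalized counts in wt Ly6Chi IMQ libraries and 4055, 4537, 3960 and 3974 in wt Ly6Clo libraries. Rpl10, which joins the subunit late in its assembly, changed by −0.55 and −0.61 (limma adjusted p of 0.0215 and 0.032), and its adjusted p rose to as much as 0.0621 and 0.0874 without a single library. Rpl39, which differed strongly between the series, had 203, 248, 1318 and 1633 normalized counts in wt Ly6Chi IMQ libraries and 146, 158, 769 and 898 in wt Ly6Clo libraries, lower at each replicate number. Its change of −0.69 was not called (limma adjusted p of 0.54) and was called with the replicate block (limma adjusted p of 7.6e-05).

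Of the 31 small subunit genes, 15 were called lower in each genotype (17.3% of all genes tested in wt and 11.8% in N2ΔMy), with medians of −0.52 in wt and −0.59 in N2ΔMy. Rps12 (chr10:23785183-23787275, minus strand) had 3846, 3968, 3633 and 5407 normalized counts in wt Ly6Chi IMQ libraries and 1970, 2184, 1808 and 2307 in wt Ly6Clo libraries. Its exons overlap 3 small RNA genes on the same strand, whose reads may add to these values. Rps12 changed by −1.02 ± 0.13 (SE) in wt and −0.99 ± 0.12 (SE) in N2ΔMy, with a limma adjusted p of 0.00017 in both. Rpsa, which is also known as a laminin receptor precursor, had 15589, 19798, 12124 and 16569 normalized counts in wt Ly6Chi IMQ libraries and 8192, 9161, 6719 and 7387 in wt Ly6Clo libraries. Its changes were −1.01 and −0.98 (limma adjusted p of 0.00041 and 0.00053), again without overlap. Rps20, a protein of the head of the small subunit, changed by −0.98 and −0.91 (limma adjusted p of 0.0002 and 9.2e-05). The exons of Rpsa, Rps20 and Rpl12 each overlap a small RNA gene on the same strand.

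Rps6, the substrate of the S6 kinases, had 3273, 3749, 4058 and 5444 normalized counts in wt Ly6Chi IMQ libraries and 2284, 2160, 2709 and 2903 in wt Ly6Clo libraries. It fell by 0.70 in wt and 0.74 in N2ΔMy on the log2 scale (limma adjusted p of 0.0049 and 0.0094). Rps4x fell in wt (−0.52, limma adjusted p of 0.0464, and up to 0.121 without a single library), and its change of −0.50 in N2ΔMy was called with the replicate block alone. Rps27a, made as a fusion with ubiquitin, had −0.32 and −0.36 and was likewise called with the block alone (limma adjusted p of 0.0096 and 0.0229).

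Rps9 was the reference gene of the study's quantitative PCR. It had 9086, 9339, 6836 and 9059 normalized counts in wt Ly6Chi IMQ libraries and 6851, 6960, 4894 and 5044 in wt Ly6Clo libraries, where Ly6Chi replicate 3 lay below 2 of the Ly6Clo libraries. In N2ΔMy it had 10210, 9796, 9359 and 9142 in Ly6Chi IMQ libraries and 6697, 7133, 6144 and 4971 in Ly6Clo libraries, which did not overlap. Rps9 fell by 0.54 in wt and 0.64 in N2ΔMy on the log2 scale (limma adjusted p of 0.016 and 0.0025), close to the median of the members. Between Sham and IMQ Ly6Chi cells its changes were −0.09 and −0.01, and neither was called.

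A few subunit genes were near 0 in this comparison. Rps27, a zinc finger protein of the small subunit, had 2035, 2173, 3603 and 5529 normalized counts in wt Ly6Chi IMQ libraries and 2481, 2658, 3650 and 5831 in wt Ly6Clo libraries, the higher value in Ly6Clo cells at each number. Its changes were 0.17 in wt, with a 95% confidence interval from −0.57 to 0.91, and −0.22 in N2ΔMy, from −0.98 to 0.55. Rps29 had −0.18 and −0.24, and neither gene was called in either genotype with or without the block. The 95% confidence intervals of both genes include the median change of the members in both genotypes. These intervals come from the fit without the block. The gap between the series, 0.95 for Rps27 and 1.02 for Rps29 on the log2 scale, widens them. They are too wide to tell either gene from that median.

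Of 9 tested paralogs, retrogenes and other names, 6 had a negative change in wt and 7 in N2ΔMy, with medians of −0.26 and −0.19, and their difference from the subunit genes was not tested. In wt 1 was called lower and 1 higher (17.3% and 18.3% of all genes tested), and in N2ΔMy none (11.8% and 13%), so these counts do not stand above the background. Rpl3l, the paralog of Rpl3 known from heart and skeletal muscle (chr17:24727820-24736143, plus strand), had 7, 8, 23 and 23 normalized counts in wt Ly6Chi Sham libraries and 19, 20, 42 and 121 in wt Ly6Chi IMQ libraries. It reached 96, 140, 310 and 279 in wt Ly6Clo libraries. In N2ΔMy it had 1, 3, 4 and 2 in Ly6Chi Sham, 10, 19, 50 and 47 in Ly6Chi IMQ, and 46, 33, 175 and 180 in Ly6Clo libraries. At the same replicate number Rpl3l was thus higher in Ly6Clo than in Ly6Chi IMQ libraries in every case, while its partner Rpl3 was lower.

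The change of Rpl3l between the subsets was 2.27 ± 0.57 (SE) in wt (limma adjusted p of 0.0099) and 1.64 ± 0.65 (SE) in N2ΔMy (limma adjusted p of 0.091, and 0.0021 with the block). No exon of another annotated gene overlapped Rpl3l. Rpl36al, a close copy of Rpl36a, had 30, 43, 27 and 64 normalized counts in wt Ly6Chi IMQ libraries and 5, 9, 19 and 20 in wt Ly6Clo libraries. It reached 50 in no group but wt Ly6Chi, so it entered the test through the groups where it is high, and the 34 members called lower in wt include it. Its exons overlap another gene on the same strand. Rpl36a itself fell by 0.75 on the log2 scale in both genotypes (limma adjusted p of 0.0037 and 0.0048).

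The remaining paralogs were not called in any comparison without the block. Rpl22l1 had −0.13 and −0.19 where Rpl22 fell, Rps27l −0.29 and −0.65, Rps4l 0.38 and −0.19, and Rps19bp1 0.00 and 0.01. Rpl7l1 had −0.26 and −0.14 and was called lower with the block in wt (limma adjusted p of 0.041), and Rps27l in N2ΔMy (limma adjusted p of 0.01). The retrogenes Rps27rt and Rpl37rt had at most 5 and 44 normalized counts in the first series, and up to 72 and 411 in the second, so that their values mainly followed the series.

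**Figure D4:**
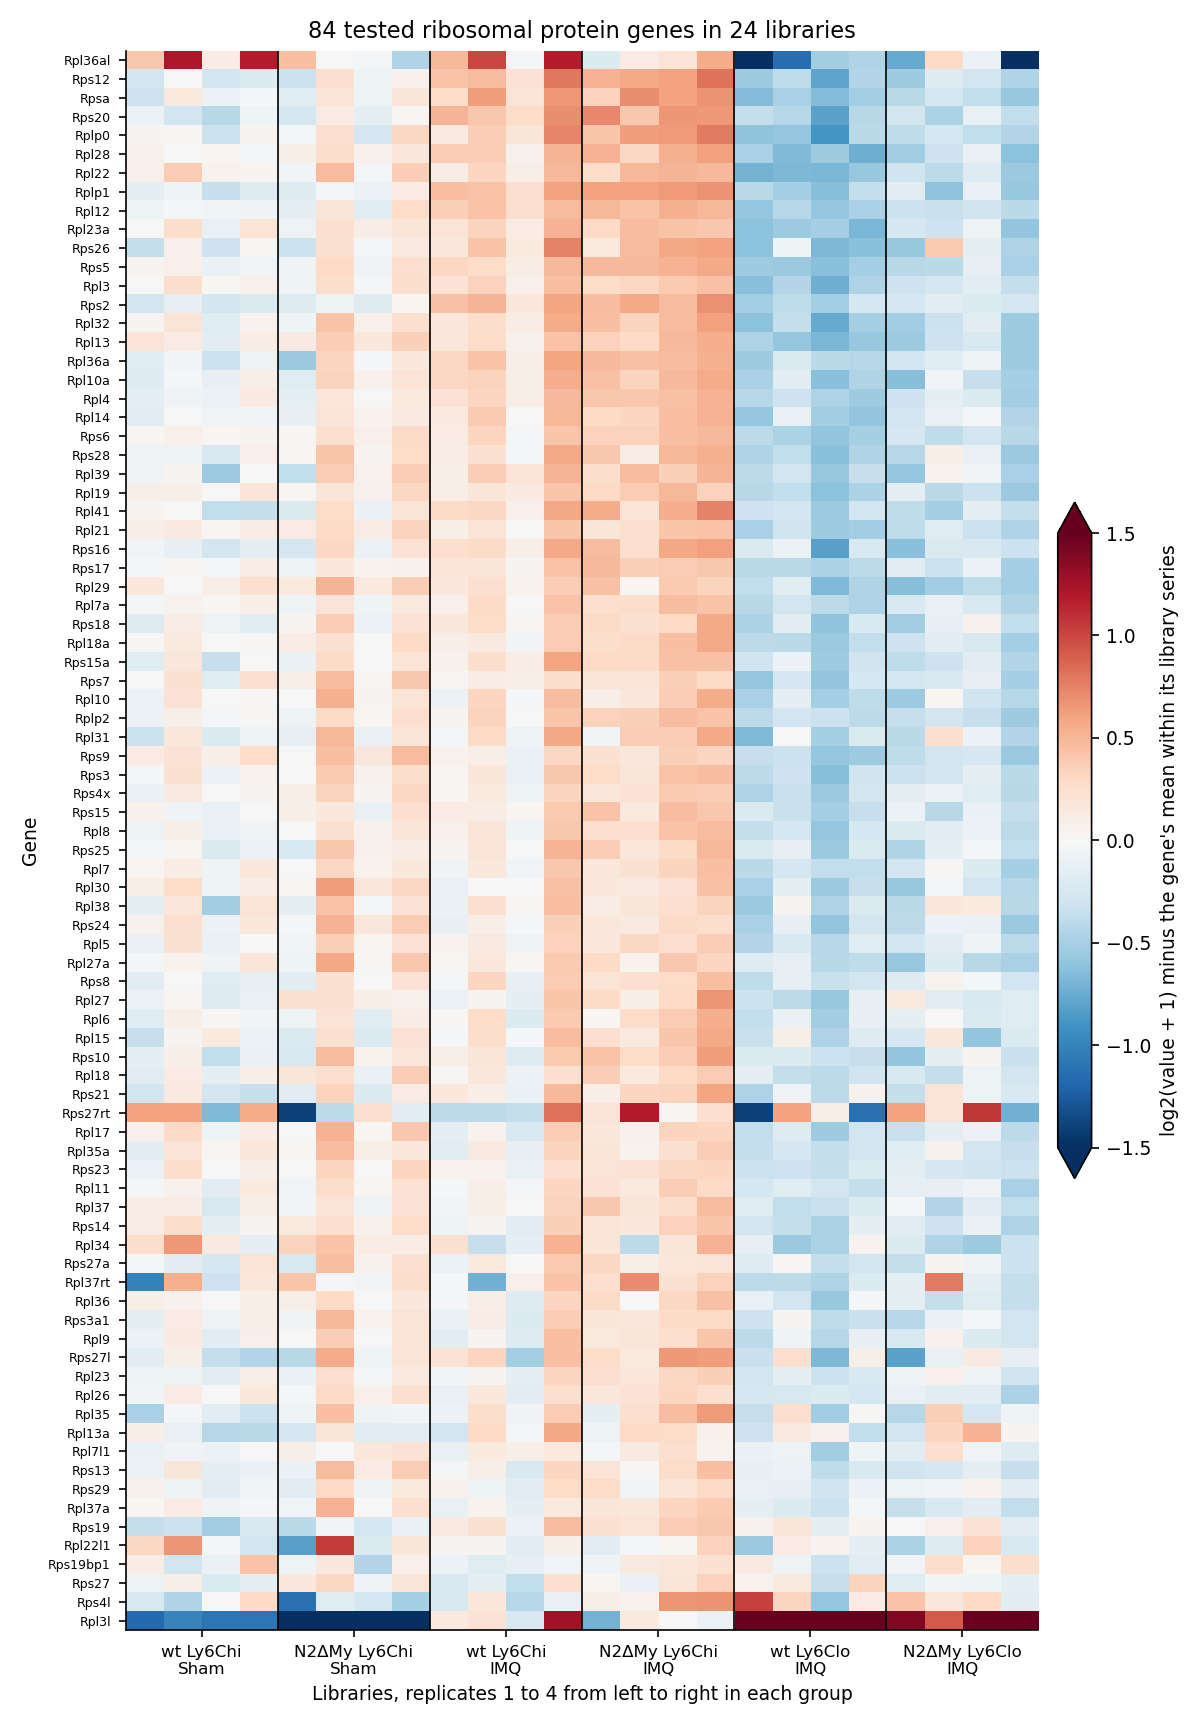
log2(normalized count + 1) of 84 of the 85 tested members (rows, ordered by the wt change between subsets) in the 24 libraries (columns, by group), after subtraction of each gene's mean within its library series (color). The Ly6Clo libraries are mostly blue and the Ly6Chi IMQ libraries mostly red, with Rpl3l in the reverse order.

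The second comparison asked what IMQ changed in Ly6Chi monocytes. Members tended to be higher under IMQ, and few passed the test. In wt, 67 of 85 members had a positive change, with a median of 0.16 against 0.01 over all genes tested. Without IMQ replicate 4 that median was −0.02. In N2ΔMy, 76 of 85 had one, with a median of 0.23 against 0.01, which was 0.08 without Sham replicate 1. In wt, 6 members were called higher (6.95% of all genes tested) and none lower (8.65%). In N2ΔMy, 6 were also called higher (6.73% of all genes) and none lower (7.02%). These shares are about those of all genes. With the fold rule 3 and 4 members were higher, where 4.43% and 4.15% of all genes were. With the replicate block 29 members were higher in wt (12.6% of all genes) and 23 in N2ΔMy (10.4%), of which 21 were shared (7.95% of all genes were higher in both).

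Of the 6 members called in each genotype, 4 were shared, Rplp1, Rps12, Rps20 and Rpl12, where 4.6% of all genes were called higher in both. Rplp1 had 5704, 6011, 5047 and 5583 normalized counts in wt Ly6Chi Sham libraries, all below the wt IMQ libraries given above. In N2ΔMy Sham libraries it had 5473, 6121, 6007 and 6968. The changes of Rplp1 under IMQ were 0.62 ± 0.09 (SE) in wt and 0.68 ± 0.09 (SE) in N2ΔMy, with limma adjusted p of 0.0015 and 0.00081. Rps20 had 2332, 2026, 1750 and 2247 normalized counts in wt Sham libraries and 3525, 3294, 2834 and 3811 in wt IMQ libraries. It rose by 0.69 in wt and 0.67 in N2ΔMy (limma adjusted p of 0.0027 and 0.0023). Rps12 rose by 0.66 and 0.64 (limma adjusted p of 0.0047 and 0.013), and Rpl12 by 0.46 in N2ΔMy (limma adjusted p of 0.049).

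The members called in 1 genotype alone were Rpl36a and Rps16 in wt, and Rpsa and Rpl3l in N2ΔMy. Rpsa had 11348, 14728, 9999 and 11942 normalized counts in N2ΔMy Sham libraries and 16305, 20911, 16031 and 16862 in N2ΔMy IMQ libraries, a rise of 0.55 (limma adjusted p of 0.021). In wt its change was 0.51, and the interaction of genotype and treatment was called for none of the 85 members. Rpl3l had 1 to 4 normalized counts in the N2ΔMy Sham libraries and 10 to 50 in the N2ΔMy Ly6Chi IMQ libraries. It reached 50 in IMQ groups alone, so it entered the test through the groups where it is high, and the 6 members called higher in N2ΔMy include it. Rpl34 and Rpl17 had changes of −0.17 and −0.08 in wt and of −0.12 and −0.02 in N2ΔMy, none of them called. The IMQ and subset comparisons of 1 genotype share its Ly6Chi IMQ libraries, so the values of each are given side by side and not related to each other. Without a single library the limma adjusted p rose to as much as 0.115 for Rpl36a and 0.0612 for Rps16 in wt, and to 0.124 for Rpl12 and 0.0581 for Rpsa in N2ΔMy.

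Comparisons without a common library can be set side by side. Over the 76 tested subunit genes, the IMQ changes of wt and N2ΔMy had a Pearson r of 0.92, and the subset changes of wt and N2ΔMy a Pearson r of 0.87. When wt came from one library series and N2ΔMy from the other, r was 0.79 and 0.71 for IMQ and 0.76 and 0.79 for the subsets. The IMQ changes of wt against the subset changes of N2ΔMy had r of −0.50, and the IMQ changes of N2ΔMy against the subset changes of wt −0.66. Over all 85 tested members, which adds the paralogs with Rpl3l among them, these r were 0.08 and 0.47, and the first pair of r was 0.74 and 0.91. These are descriptions across genes, which are not independent replicates, and which share transcript length and base composition in every library.

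**Figure D5:**
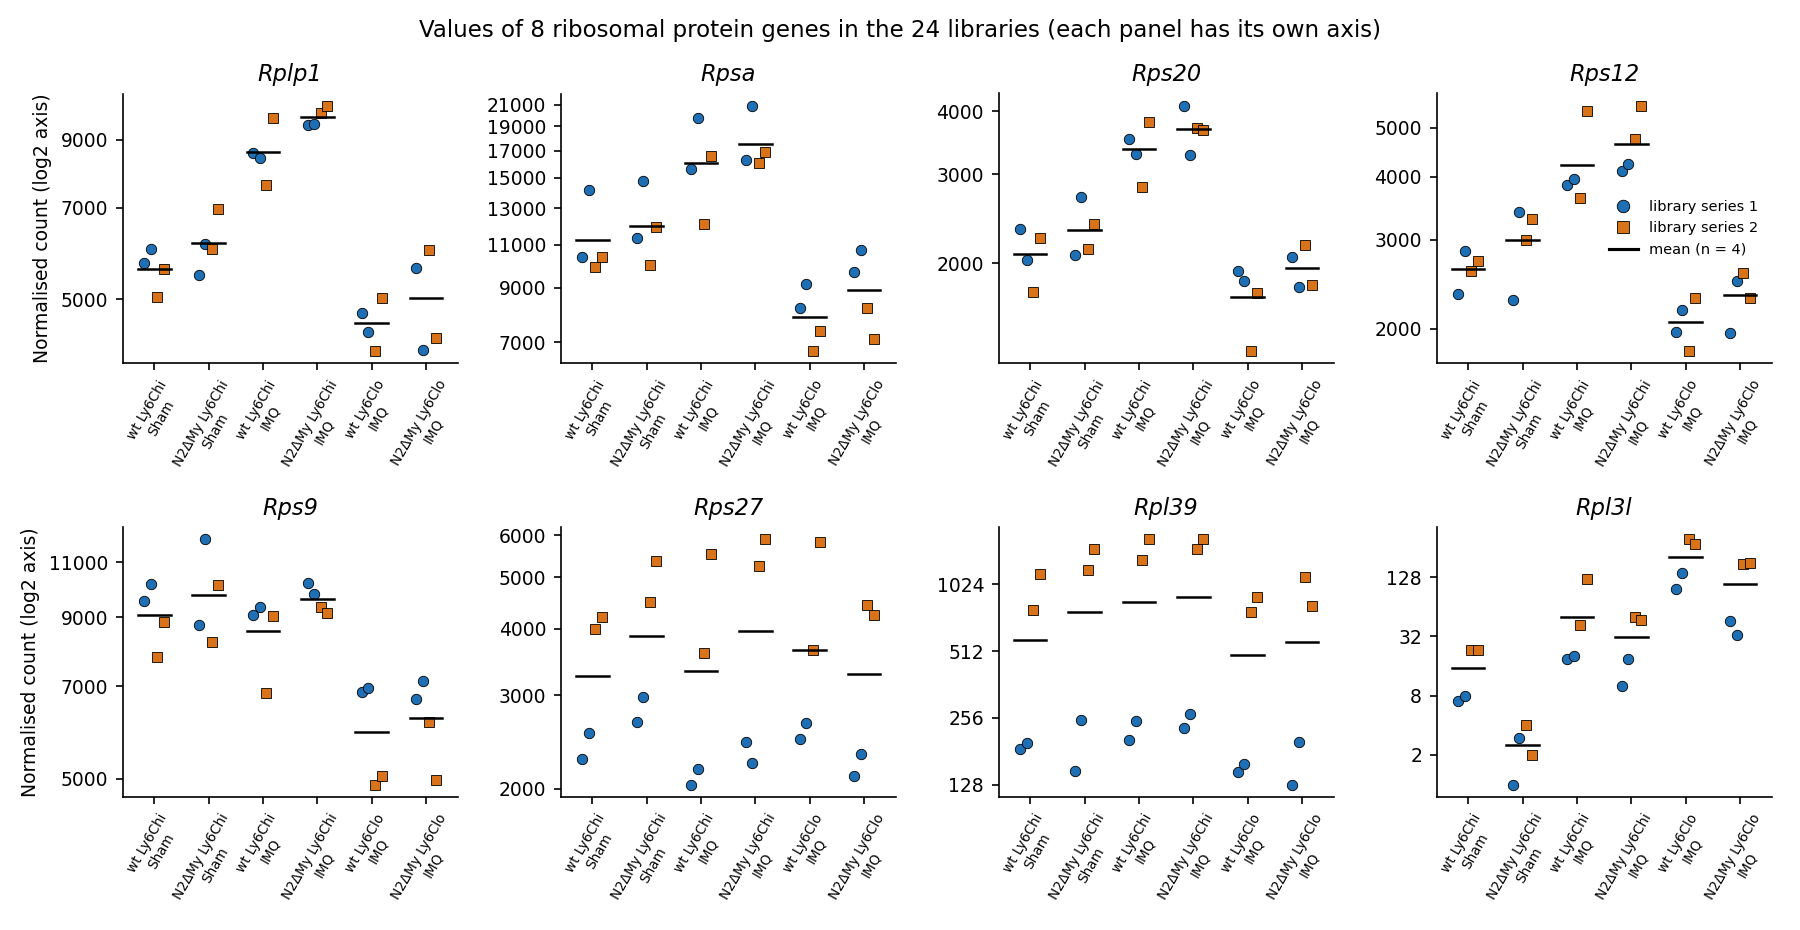
Normalized counts (vertical axes, log2 scale, a separate axis for each panel) of 8 members in each library by group, with a point per library marked by its series and a bar at the mean (n = 4). Rplp1, Rpsa, Rps20 and Rps12 were highest in Ly6Chi IMQ and lowest in Ly6Clo cells, Rps27 and Rpl39 separated by series, and Rpl3l was highest in Ly6Clo cells.

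The third comparison asked what loss of Notch2 changed. No member was called between N2ΔMy and wt in Ly6Clo cells of IMQ mice (6.41% of all genes tested were), in Ly6Chi cells of IMQ mice (0.0267%) or in Ly6Chi cells of Sham mice (0.0178%). At an unadjusted p under 0.05, limma without the block gave 2, 0 and 1 members, where 19.5%, 6.05% and 5.21% of all genes were. With the replicate block limma gave 16, 32 and 32 of the 85 members, where 3406, 1666 and 1372 of the 11230 genes tested were. In that fit the share of members was above that of all genes in both Ly6Chi comparisons and below it in Ly6Clo cells. After adjustment, no member was called with the block in either Ly6Chi comparison. The changes leaned upward in N2ΔMy, with medians of 0.12, 0.17 and 0.13 over the 85 members and positive values for 69, 82 and 79 of them. In Ly6Clo cells the median was −0.02 without N2ΔMy replicate 3. Without N2ΔMy replicate 4 it was 0.06 in Ly6Chi IMQ and 0.01 in Ly6Chi Sham cells. A single library left out unbalances the series. With each replicate number left out of both genotypes at once, the medians lay between 0.03 and 0.18 in Ly6Clo, 0.09 and 0.21 in Ly6Chi IMQ and 0.11 and 0.18 in Ly6Chi Sham cells. The members' summed share was higher in N2ΔMy at 3 of 4 replicate numbers in Ly6Clo cells, and at 4 of 4 in Ly6Chi cells under IMQ and under Sham. In the fit without the block, the median half-width of the 95% confidence interval of a subunit gene was 0.40, 0.48 and 0.40 on the log2 scale. Shifts the size of these medians were thus not detectable gene by gene in that fit.

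In Ly6Clo cells 5 members were called once the replicate number was a block. Rpl3, Rps26, Rpl23a and Rpl22 were higher in N2ΔMy (8.38% of all genes were higher) and Rpl3l was lower (8.12% were lower). Rpl3 had 3262, 3726, 2916 and 3496 normalized counts in wt and 4076, 4236, 4344 and 3775 in N2ΔMy Ly6Clo libraries, which did not overlap, a change of 0.30. The Ly6Clo libraries of the genotypes also differed in Ccr2, a receptor gene of Ly6Chi monocytes, at 241–991 in wt and 4393–6281 in N2ΔMy. The 3 Ly6Chi markers had a median change of 2.01 there, with 1 called. Of 6 Ly6Clo markers 4 were called lower and 2 higher in N2ΔMy. Of 8 macrophage markers listed, 5 were tested and 4 called higher, with a median of 4.18. Among those tested, C1qa, C1qc and Mertk passed the filter through N2ΔMy Ly6Clo libraries alone. They were at 184 to 568 there and at most 38 elsewhere. The macrophage count and median thus lean on genes that entered through the group where they are high. The part of all these markers in the members' changes was not tested. For Rpl3l the change was −1.14, with a limma adjusted p of 0.32 without the block and of 0.0085 with it. In Sham Ly6Chi cells Rpl3l was at 1 to 4 in N2ΔMy and at 7 to 23 in wt, which did not overlap, with a limma adjusted p of 0.88. The interaction of genotype and subset called none of the 85 members (1.06% of all genes tested), and that of genotype and treatment none (0% of all genes). At an unadjusted p under 0.05 these gave 0 and 1 members, where 8.33% and 1.58% of all genes were.

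Over the 6 groups together, a limma F-test (adjusted p up to 0.01) called 30 of 85 members, where 43% of all genes were called. With the replicate block it called 73 of 85, where 57.1% of all genes were. Rplp1, Rps20 and Rpl3 had the smallest adjusted p (1.1e-08, 7.4e-08 and 1.1e-07).

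Apart from the group differences, subunit genes moved together from library to library. After each group's mean was removed, the median Pearson r between pairs of the 76 tested subunit genes was 0.74 over the 24 libraries, against 0.00 between pairs of all genes tested. With the means of each series within each group also removed, which leaves 12 pairs of libraries, it was 0.72. For 76 mitochondrial ribosomal protein genes the median r was 0.17 and 0.13, for 23 other TOP genes 0.35 and 0.57, for 58 initiation and elongation factors 0.14 and 0.27, and for 92 ribosome biogenesis genes 0.04 and 0.08. Of the 85 members, 7 had a negative r with the median of the other tested subunit genes: Rps23 (−0.60), Rps15a (−0.53), Rps26 (−0.49), Rpsa (−0.40), Rps9 (−0.40), Rpl17 (−0.18) and Rpl23a (−0.06). Once the series means were removed, their r lay between 0.75 and 0.99. The points share depth and library preparation.

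Genes around the ribosome were read from fixed lists. Their counts stand against 17.3% of all genes called lower and 18.3% called higher in wt Ly6Clo cells, and 11.8% and 13% in N2ΔMy. Among subunit genes that the name rule does not match, Gnb2l1 (Rack1), a scaffold on the small subunit, fell by 0.49 in Ly6Clo cells of both genotypes (limma adjusted p of 0.0032 and 0.0056). Fau, a fusion of a ubiquitin-like protein with a small subunit protein, fell in N2ΔMy (−0.33, limma adjusted p of 0.043) and had −0.09 in wt.

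Of 23 other genes with TOP mRNAs, 10 were called lower in wt Ly6Clo cells and 14 in N2ΔMy, with medians of −0.49 and −0.52, and 1 was called higher, in wt. The 23 also hold Gnb2l1, so this list is not wholly apart from the subunit genes. Eef1a1, the elongation factor that brings aminoacyl-tRNA, fell by 0.59 and 0.66, Eef2 by 0.51 and 0.61, Tpt1 by 0.49 and 0.55, and Npm1, a nucleolar chaperone, by 0.58 and 0.53 on the log2 scale. Nap1l1 was the gene called higher (0.70 in wt). None of the 23 was called under IMQ in Ly6Chi cells of either genotype. Of 58 tested initiation and elongation factors, 20 were lower and 3 higher in wt Ly6Clo cells (median −0.25), and 15 and 3 in N2ΔMy (median −0.19). The termination factor Gspt2 was called lower in both (−2.73 and −2.89).

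Of 92 ribosome biogenesis genes, 27 were lower and 2 higher in wt Ly6Clo cells (median −0.28), and 18 and 1 in N2ΔMy (median −0.17). Wdr12, of the PeBoW complex of large subunit assembly, changed by −2.02 in wt and −0.75 in N2ΔMy. In this list 4 of 92 genes were called higher in N2ΔMy than in wt Ly6Clo cells, Noc2l (1.17), Utp20 (0.94) and Nat10 (0.87) among them, where 6.41% of all genes were called in either direction. The interaction of genotype and subset called 2 genes of the list, where 1.06% of all genes were. Of 76 tested mitochondrial ribosomal protein genes, 19 were lower and 1 higher in wt (median −0.34), and 12 lower in N2ΔMy (median −0.33). Under IMQ 5 of the 76 were called higher in each genotype, about the share of all genes (6.95% in wt and 6.73% in N2ΔMy). Like the members they leaned upward there, with medians of 0.28 in wt and 0.24 in N2ΔMy. Positive changes were seen for 71 and 69 of the 76.

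The mTOR and Myc list of 45 tested genes was split, with 10 higher and 6 lower in wt Ly6Clo cells (median 0.02) and 8 and 4 in N2ΔMy (median 0.01), near the shares of all genes given above. Larp1, the TOP mRNA binding protein, had 3437, 3049, 3180 and 3055 normalized counts in wt Ly6Chi IMQ libraries and 1920, 1822, 2026 and 1793 in wt Ly6Clo libraries, and fell by 0.75 in wt and 0.52 in N2ΔMy. It also fell under IMQ in Ly6Chi cells, by 0.42 and 0.39 on the log2 scale, where the members leaned upward. Mtor (0.21 and 0.13) and Rps6kb1 (−0.16 and −0.20) were not called between the subsets. Myc, a driver of ribosome production, had 26, 33, 39 and 47 normalized counts in wt Ly6Chi IMQ libraries, 7, 6, 19 and 9 in wt Ly6Clo libraries and 30, 47, 137 and 91 in N2ΔMy Ly6Clo libraries. It fell in wt Ly6Clo cells (−1.82, limma adjusted p of 0.0083), had 1.29 in N2ΔMy, where it was not called, and was higher in N2ΔMy than in wt Ly6Clo cells by 2.68 (limma adjusted p of 0.013), a contrast in which no member was called without the block.

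Other RNAs moved with the groups beside the members. The nuclear RNA Malat1 was at 53987–108599 in Ly6Chi IMQ libraries and at 121806–239995 in Ly6Clo libraries, and rose in Ly6Clo cells by 1.14 in wt and 1.07 in N2ΔMy. Between the genotypes it was not called. Its means in wt and N2ΔMy were 203082 and 152530 in Ly6Clo and 92432 and 74176 in Ly6Chi IMQ cells. In Ly6Chi Sham libraries it was at 121189–135112 in wt and 91388–118880 in N2ΔMy, without overlap. Among the other genes tested, 105 with a main transcript under 600 bases had a median change of −0.56 in wt and −0.50 in N2ΔMy Ly6Clo cells on the log2 scale, and those of 1000 bases or more a median of −0.01 in each. Among the members, those under 600 bases had a median of −0.42 in wt and −0.57 in N2ΔMy, and those of 1000 bases or more −0.54 and −0.62. The 105 short transcripts were also a median of 0.39 and 0.33 higher under IMQ in Ly6Chi cells. The part of RNA composition and of transcript length in the members' changes was not tested.

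Markers of other cells also differed. The 8 neutrophil markers summed to 2–59 in Sham Ly6Chi, 921–5213 in IMQ Ly6Chi and 17–290 in Ly6Clo libraries. S100a8, which monocytes can also express, was at up to 3443. Together with S100a9 it made up most of the sum in every IMQ Ly6Chi library. S100a8 and S100a9 held 561 and 685 of 1263 in wt replicate 1, and 3443 and 1739 of 5213 in N2ΔMy replicate 4. The other markers, Ly6g, Camp, Ltf, Ngp, Retnlg and Cxcr2, were each at most 19 in IMQ Ly6Chi libraries. The 8 macrophage markers summed to 1886–2421 in Sham Ly6Chi, 2180–4167 in IMQ Ly6Chi, 3986–6142 in wt Ly6Clo and 7604–11768 in N2ΔMy Ly6Clo libraries, and C1qa was at 203–305 in the last group and at most 26 elsewhere. A single gene, Adgre1, made up most of the sum in every library. In replicate 1 it held 1843 of 1886 in wt Ly6Chi Sham, 5105 of 5212 in wt Ly6Clo and 8706 of 10733 in N2ΔMy Ly6Clo cells. The 6 dendritic cell markers summed to 823–1687 in Sham Ly6Chi, 270–531 in IMQ Ly6Chi, 86–568 in wt Ly6Clo and 212–1690 in N2ΔMy Ly6Clo libraries, and the 5 platelet markers to 21–273 over all libraries. Their part in the members' changes was not tested.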

How the data were processed

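Sorted blood monocytes of 6 groups, 4 libraries each, were sequenced by the authors as total RNA with a stranded low-input kit. Per the submitters' notes and the methods, reads were trimmed with Trim Galore 0.4.4, aligned with STAR 2.5.3a to GRCm38.p6 (GENCODE M17) and normalized with DESeq2. The deposited values are normalized counts rounded to whole numbers, handled as a score since they are not raw counts. Whether counting used strand is not given in the sources used here. Columns of the authors' own comparisons were not used.

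Members were chosen by name, and members and lists were chosen with earlier results of these data known. The 11230 genes that reached 50 in some library were tested with limma 3.58.1 (R 4.3.3, eBayes with trend) on log2(value + 1), which understates changes of low genes. Each comparison used its own 8 libraries, interactions 16 and the F-test 24. Calls took a Benjamini-Hochberg threshold of 0.05 (0.01 for the F-test), and the fold rule a log2 change of 0.6 as well. Exact permutation tests ran over 70 splits. Scripts were tested on simulated data. Named genes were a set of stalk, reference and paralog genes, up to 5 called members in each direction and comparison, the 5 highest and lowest per kilobase, and for the other lists up to 3 called genes with a set of known regulators. Rpl12, Rpl17, Rpl23a, Rpl24, Rpl34, Rpl37rt, Rps10, Rps15a, Rps23, Rps26 and Rps29, and Eef2, Nap1l1, Nat10 and other list genes outside that rule, were named after their values were seen.

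Same-numbered libraries deviated together in all 28 pairs checked (r of 0.16 to 0.62), and the replicate number was used as the block. These r include the gap between the series, and libraries of unlike number were not compared. The check thus cannot tell pairing by number from a shared series. Within a library series r was −0.12 to 0.26. Exon overlaps and transcript lengths came from GENCODE M21. Reads behind the values were inferred from the steps that rounding leaves. Results of some items are not reported here.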

Additional observations from a re-analysis of the deposited data

Results flagged for a closer look

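In each group of 4 libraries, the library farthest from the others was compared with the range of the group, for 27 named members and for the members' summed share. Of 168 such groups 9 stood out. The rule flags about 1 in 20 groups when all 4 values come from the same distribution. Here each group holds 2 libraries of each series and the members move together, so the 9 cannot be held against that rate. In wt Ly6Chi Sham cells these were Rpl22 at 3864 in replicate 1 (the others 4762 to 4801), Rpl3 at 6040 in replicate 2 (4932 to 5088) and Rpsa at 14164 in replicate 2 (9932 to 10392). In wt Ly6Chi IMQ cells they were Rps16 at 2111 in replicate 4 (1518 to 1559), Rps27l at 388 in replicate 4 (171 to 199) and Rps9 at 6836 in replicate 3 (9059 to 9339). Rpsa was at 20911 in replicate 2 of N2ΔMy Ly6Chi IMQ cells (16031 to 16862). In wt Ly6Clo cells Rpl7 was at 4537 in replicate 2 (3960 to 4055) and Rpl39l at 1 in replicate 1, with 0 in the others. The causes were not tested.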

How the results depend on the processing

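The alternatives changed how many members were called and not the direction of any named call. With the replicate block, members called numbered 29 and 23 for IMQ in wt and N2ΔMy, 73 and 73 for the subsets, 5 for genotype in Ly6Clo cells and 73 in the F-test, where 26.3%, 20.3%, 50.4%, 35.3%, 16.5% and 57.1% of all genes tested were called. With the library series as a covariate these were 21, 26, 66, 72, 3 and 67 members, and 25.4%, 23%, 45.3%, 36%, 13.2% and 54.7% of all genes. Within the first series 2 members were called for IMQ in N2ΔMy (9.24% of all genes), and within the second 19 there (11%), 74 for the subsets in N2ΔMy (31.2%) and 46 in the F-test (29.2%). Without a filter on low values the counts fell to 2 and 2 for IMQ and to 16 and 18 for the subsets, with 3.93%, 3.36%, 11.8% and 6.88% of 28578 genes called. Leaving out single libraries gave 4 to 7 called members for IMQ in each genotype, 25 to 42 and 28 to 45 for the subsets, 0 to 1 for genotype in Ly6Clo cells, 0 for the other genotype comparisons and the interactions, and 24 to 32 in the F-test. TMM, upper-quartile scaling, scaling to the sum of the other genes, both other pseudocounts, a stricter filter, a fit without trend, a fit of all 24 libraries and the sum with -ps entries kept every count within 1.5 times. The medians moved by less than the spread between replicates (SD of 0.34) under every alternative run, though without 1 library the median ranged from −0.02 to 0.29 for IMQ in wt, from 0.08 to 0.34 for IMQ in N2ΔMy, and for genotype from −0.02 to 0.21 in Ly6Clo, 0.06 to 0.34 in Ly6Chi IMQ and 0.01 to 0.27 in Ly6Chi Sham cells. With a replicate number left out of both groups, an alternative chosen after the data were seen, the median lay between 0.10 and 0.18 for IMQ in wt, 0.17 and 0.30 for IMQ in N2ΔMy, −0.54 and −0.41 for the subsets in wt and −0.65 and −0.48 in N2ΔMy. Of the named calls, Rpl36a and Rps16 under IMQ in wt and Rpsa under IMQ in N2ΔMy were lost under 10, 8 and 6 alternatives, and Rpl36al, counted among the members lower in wt Ly6Clo cells, under 6. Rps12 in N2ΔMy and Rpl3l in N2ΔMy under IMQ were lost under 2 each, and Rps12 in wt and Rps20 in N2ΔMy under IMQ, Rplp0 between the subsets in both genotypes and Rpl3l between them in wt under 1 each. The causes were not tested. The 9 tested paralogs and other names had means of 19.5 to 908 normalized counts, and counting error relative to the mean is larger at the low end.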
